A study of Homo sapiens with 2 samples.

Results

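The CDK inhibitor genes CDKN1A, CDKN1B, CDKN1C, CDKN2C, CDKN2D and CDKN3 were followed in an expression array series of samples labelled HL60, the name of a cell line from a human promyelocytic leukaemia. The members were 6 genes chosen by name, and each probe set that the platform annotation assigned to one of them alone was taken, whatever its signal. This gave 11 probe sets for 5 genes, of 19775 genes named on the array. CDKN2C, which encodes p18, had no probe set assigned to it in that annotation and was not analysed here. The series holds 2 samples, both labelled HL60 and grown in RPMI with 10% FBS. One was untreated, with no vehicle or culture time in its label, and the other received eltrombopag at 3 µg/ml for 36 h. Eltrombopag is a drug that activates the receptor for thrombopoietin and chelates iron. With 1 sample in each group there is no replicate error and no test of the treatment, so every difference given is a difference between 2 arrays. The drug, culture time and vehicle cannot be told apart.

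Progress through the cell cycle is driven by cyclin-dependent kinases (CDKs), which act when bound to a cyclin. CDKN1A (p21), CDKN1B (p27) and CDKN1C (p57) form the CIP/KIP family and bind whole cyclin-CDK complexes, mainly those that start DNA replication, while CDKN2C (p18) and CDKN2D (p19) belong to the INK4 family and keep CDK4 and CDK6 from pairing with D cyclins. CDKN3 stands apart from both families: it is a phosphatase that removes the activating phosphate from CDK2, and its transcript is abundant in dividing cells. CDKN1A is the best known transcriptional target of p53, a protein that HL60 cells are known to lack, and is also switched on by other factors when myeloid cells mature.

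MAS5 signals measure the brightness of a probe set on a linear scale. Signals of different probe sets are not on a common scale, so levels are compared between samples and not between genes. A floor was set at a signal of 56.9, the 60th percentile of both samples pooled, and dimmer signals were set to it ahead of the log2 step. A gene is called measured when the brightest of its probe sets reached the floor in at least 1 sample. Of the 5 genes with probe sets, 4 were measured, and so were 10314 of all genes. Of the 11 probe sets, 5 reached the floor and 6 lay below it in both samples.

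The labels were checked against marker genes. The samples are labelled as hematopoietic stem cells as well as HL60. Of 10 stem cell markers, 2 reached the floor without the drug and 3 with it. GATA2 (2589 and 2131) and MECOM (79.45 and 107.59) reached it in both samples, and MEIS1 with eltrombopag alone (57.73). CD34 (30.3 and 34.7) and KIT (9.56 and 14.9) were among those below it in both. Of 14 promyelocyte markers, 11 reached the floor in each sample, with a summed signal of 17426.7 untreated and 17914.7 with eltrombopag. That sum was carried largely by SRGN, a granule proteoglycan (7160 and 7685), and MYB, a progenitor factor (4349 and 5855). A log2 ratio below 0 was found for 8 of the 11, against 63.4% of all measured genes. MPO, myeloperoxidase, had signals of 1556 and 1467. The promyelocyte markers below the floor in both samples were ELANE, neutrophil elastase (11.1 and 8.04), SPI1 (31.33 and 16.72) and LYZ (13.76 and 16.23). Of 14 plasma cell markers, 13 reached the floor in each sample, and CD27 was the marker below it. Their summed signal was 1.70-fold lower with eltrombopag, at 19772.2 against 11657.2. JCHAIN had the largest signal in that sum (7972 and 4866), XBP1 hardly moved (3441 and 3268), and 12 of the 13 had a ratio below 0. IRF4, the transcription factor of plasma cells, went from 676.9 to 131.2. Markers of mature neutrophils (1 of 8 at or above the floor in each sample), monocytes (0 of 5), T cells (0 of 6 untreated, 1 with eltrombopag), erythroid cells (1 of 4 untreated, 0 with eltrombopag) and fibroblasts or epithelia (2 of 8 in each) were mostly below the floor. These plasma cell transcripts go against the label HL60. Whether the cultures held HL60 cells alone was not tested, nor was the part of plasma cell transcripts in the ratios below. In RNA from a whole culture, fewer cells of a type and less RNA per cell cannot be told apart.

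CDKN1A and CDKN3 had lower signals in the eltrombopag sample, and CDKN1B and CDKN2D had signals close to those of the untreated one. CDKN1C lay below the floor throughout. Of the 4 measured genes, 2 were lower by 2-fold or more and 0 were higher by as much. Among all measured genes, 2.27% were lower by 2-fold or more and 0.650% were higher. The array as a whole was shifted, with a median log2 ratio of -0.12 over genes that reached the floor in each sample. The balance moved with the scaling, from 234 lower and 67 higher genes as deposited to 133 and 108 after quantile normalization. After rescaling, the share of all genes lower by 2-fold or more was 1.49% with median centring, 1.29% with quantile normalization and 1.33% with lowess, and 1 of the 4 measured CDK inhibitor genes, CDKN1A, was so. CDKN3 passed 2-fold narrowly on the deposited scale and fell short of it, in the probe set used for the gene, when the arrays were rescaled.

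**Figure D1:**
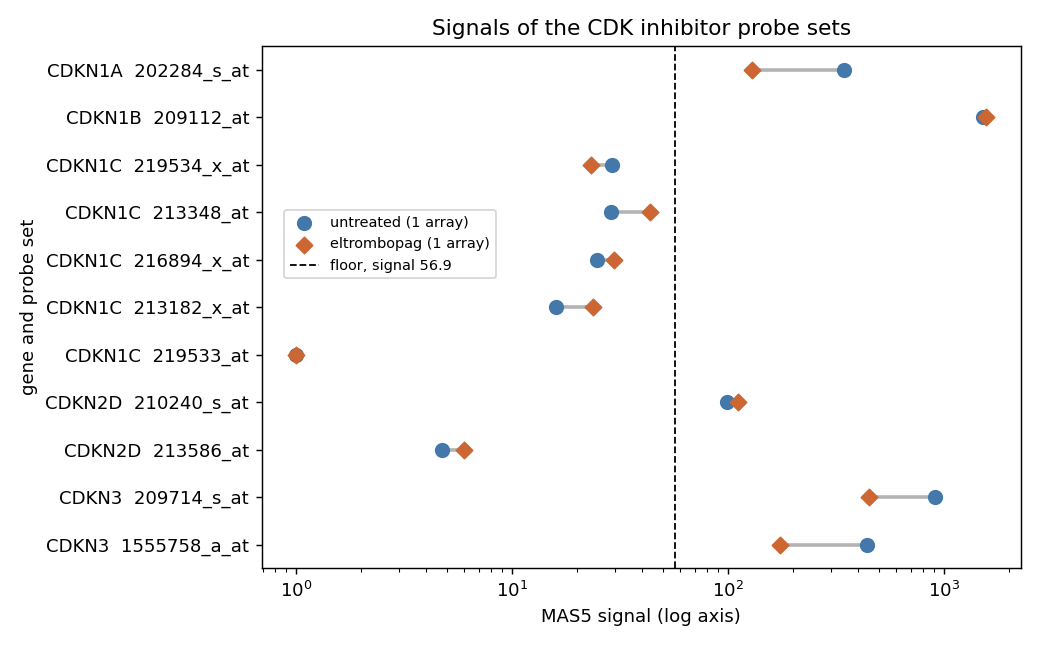
MAS5 signal (log axis) of each of the 11 probe sets of the CDK inhibitor genes in the untreated (circle) and the eltrombopag array (diamond), joined by a line; the dashed line marks the floor of 56.9. The CDKN1A probe set and both CDKN3 probe sets are lower in the eltrombopag array, CDKN1B and the brighter CDKN2D probe set nearly coincide, and all 5 CDKN1C probe sets lie below the floor.

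CDKN1A was represented by 1 probe set, 202284_s_at. Its signal was 341.8 in the untreated sample and 128.4 in the eltrombopag sample, both above the floor. The signal was thus 2.66-fold lower with eltrombopag, a log2 ratio of -1.41. Of the 10314 measured genes, 37 had a lower ratio than CDKN1A. Genes close to the floor in the untreated sample could not reach so low a ratio, because the floor bounds it. Of 1901 measured genes whose mean log2 signal lay within 0.5 of that of CDKN1A, 76 were at least 2-fold lower. The suffix _s_at marks a probe set whose probes can match more than 1 transcript, and there was no second CDKN1A probe set to compare with it. The ratio was -1.31 after median centring, -1.27 after quantile normalization and -1.28 after lowess, so CDKN1A stayed past 2-fold under each of these scalings.

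CDKN3 was represented by 2 probe sets, both above the floor in both samples. The brighter, 209714_s_at, had signals of 901.1 untreated and 447.3 with eltrombopag, 2.01-fold lower, with a log2 ratio of -1.01. The dimmer, 1555758_a_at, had signals of 437.9 and 173.2, 2.53-fold lower, with a log2 ratio of -1.34. Both were thus lower with eltrombopag, and their ratios differed by 0.33. Across 4374 genes that likewise had 2 probe sets reaching the floor in each sample, the median of such differences was 0.21 and the upper quartile 0.39. This disagreement between probe sets is seen within the arrays, and it is no error between cultures. Of all measured genes, 223 had a lower ratio than CDKN3, with the same bound on genes close to the floor. Of 2154 measured genes within 0.5 of its mean log2 signal, 28 were at least 2-fold lower. The brighter probe set gave -0.91 after median centring, -0.91 after quantile normalization and -0.92 after lowess, below 2-fold each time.

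CDKN1B, whose product p27 holds cells in the resting state and in G1, was represented by 1 probe set, 209112_at. Its signal was 1515 untreated and 1558 with eltrombopag, a log2 ratio of 0.04. This is 1.03-fold, and 6969 measured genes had a lower ratio and 3344 a higher one. Under the other scalings CDKN1B had ratios of 0.14, 0.12 and 0.12. CDKN2D, the INK4 inhibitor p19, had signals of 98.4 and 111.4 in its brighter probe set, 210240_s_at, a log2 ratio of 0.18. This probe set lay less than 2-fold above the floor in each sample, and the other one, 213586_at, lay far below it at 4.72 and 5.97. Of the measured genes, 2004 had a higher ratio than CDKN2D. The 2 genes were thus inside the bulk of the array, slightly on its higher side, and neither came near 2-fold.

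CDKN1C, the imprinted family member p57, had 5 probe sets, none of which reached the floor. The brightest on average, 213348_at, read 28.6 untreated and 43.5 with eltrombopag. Another, 219534_x_at, went the other way, from 28.8 to 23.2. The remaining 3 lay between 1.0 and 29.6 in both samples, and 219533_at read exactly 1 in each. At this signal no direction is given for CDKN1C. Of the genes around it in the imprinted cluster, 3 of 6 listed were on the array with a probe set of their own, and all 3 reached the floor in at least 1 sample. KCNQ1, a potassium channel gene, had signals of 72.7 and 36.5, KCNQ1OT1, the long noncoding RNA that silences CDKN1C on the paternal chromosome, 57.9 and 71.8, and PHLDA2, an imprinted growth restraint gene, 125.4 and 135.3.

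**Figure D2:**
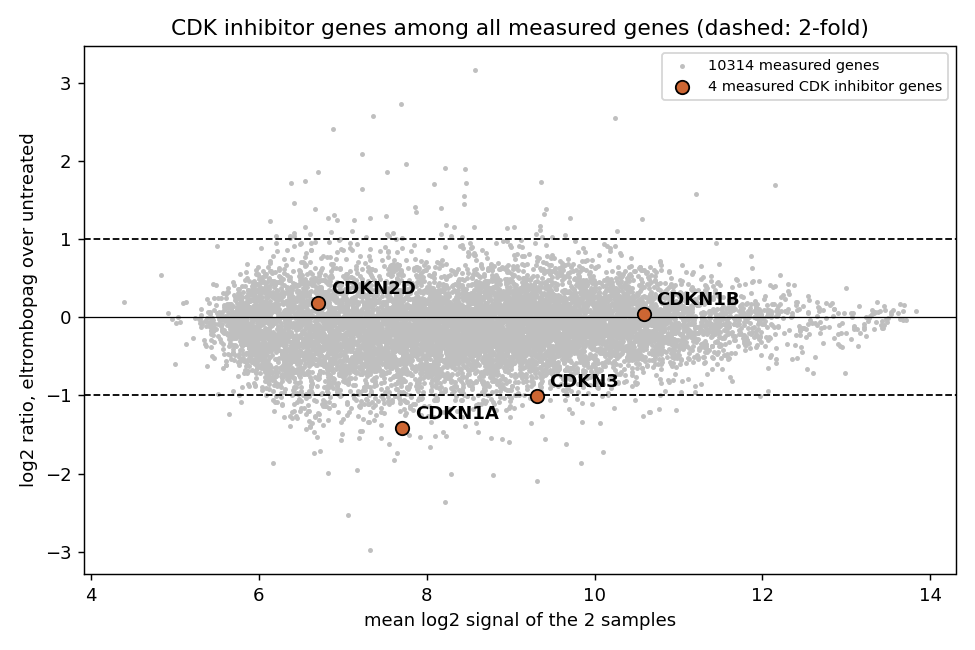
Log2 ratio of eltrombopag over untreated (vertical axis) against the mean log2 signal of both samples (horizontal axis) for 10314 measured genes (grey), with the 4 measured CDK inhibitor genes as labelled circles; dashed lines mark 2-fold. CDKN1A lies at -1.41 at the lower edge of the cloud and CDKN3 at -1.01 on the 2-fold line, while CDKN1B (0.04) and CDKN2D (0.18) lie within it.

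The promoters of the 4 measured genes are shown because 2 of these genes were lower and 2 were not. The sequences are the 250 bases before the start site from RefSeq (GRCh38.p14), written 5′ to 3′ on the strand of the gene, and 4 of the 5 genes with probe sets had an entry. Capitals mark 3 short motifs on either strand: the GC box GGGCGG, which Sp1 factors bind, the CCAAT box CCAAT, which the factor NF-Y binds, and TTTGAA, the core of the CHR element found in many genes of late cell cycle. The regions are chr6:36678464-36678713 (plus strand) for CDKN1A, chr14:54396757-54397006 (plus) for CDKN3, chr12:12717118-12717367 (plus) for CDKN1B and chr19:10568980-10569229 (minus) for CDKN2D. The CDKN1A region lies inside the annotated gene, which begins at 36676463, so its start site is not the most upstream one. The other regions adjoin the annotated gene.
CDKN1A: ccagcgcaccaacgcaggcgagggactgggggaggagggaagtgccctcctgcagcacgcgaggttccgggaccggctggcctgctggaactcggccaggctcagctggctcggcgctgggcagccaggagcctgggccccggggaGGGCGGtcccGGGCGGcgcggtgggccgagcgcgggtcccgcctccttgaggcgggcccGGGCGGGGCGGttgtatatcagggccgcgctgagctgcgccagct
CDKN3: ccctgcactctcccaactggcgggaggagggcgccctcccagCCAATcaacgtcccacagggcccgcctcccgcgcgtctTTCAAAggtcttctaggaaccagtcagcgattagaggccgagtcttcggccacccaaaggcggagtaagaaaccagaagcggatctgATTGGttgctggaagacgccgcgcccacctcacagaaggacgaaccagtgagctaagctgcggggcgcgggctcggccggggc
CDKN1B: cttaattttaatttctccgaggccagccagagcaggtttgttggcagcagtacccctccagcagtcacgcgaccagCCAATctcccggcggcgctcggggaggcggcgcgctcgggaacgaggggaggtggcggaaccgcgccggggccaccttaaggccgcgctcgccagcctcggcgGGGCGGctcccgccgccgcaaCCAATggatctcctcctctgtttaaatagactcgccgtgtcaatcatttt
CDKN2D: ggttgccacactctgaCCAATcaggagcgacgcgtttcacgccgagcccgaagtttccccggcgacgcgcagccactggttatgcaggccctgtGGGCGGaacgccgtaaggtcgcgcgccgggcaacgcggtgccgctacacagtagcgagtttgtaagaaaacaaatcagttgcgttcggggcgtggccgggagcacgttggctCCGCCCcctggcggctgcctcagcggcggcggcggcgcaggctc

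The CDKN1A promoter held 4 GC boxes, the last 2 overlapping by 1 base, and no CCAAT box or CHR core. The CDKN3 promoter held 2 CCAAT boxes and 1 CHR core, the latter on the opposite strand, and no GC box. CDKN1B had 1 GC box and 2 CCAAT boxes, and CDKN2D 2 GC boxes and 1 CCAAT box. Over 35116 promoters of the same length, 42.6% held a GC box, 32.0% a CCAAT box and 13.3% a CHR core on either strand. The 2 lower genes shared none of these motifs, and a match of letters does not show that a factor binds.

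The partners of the inhibitors were compared next. Of 10 measured cyclins and CDKs that the inhibitors bind, 2 were lower by 2-fold or more, 0 were higher by as much and 8 had a ratio below 0. The median log2 ratio was -0.58, against -0.12 for all measured genes, of which 63.4% were below 0 and 2.27% lower by 2-fold or more. CCND3, a D cyclin that INK4 proteins keep from its kinase, went from 969.9 to 380.9, 2.55-fold lower, and CCNE2, an E cyclin that activates CDK2, from 423.8 to 174.8, 2.42-fold lower. The other E cyclin, CCNE1, had a ratio of -0.89, while the D cyclins CCND1 and CCND2 had 0.02 and -0.26. Other probe sets gave -0.19 for CCND1 and -0.23 and -0.71 for CCND2. Of the kinases, CDK4 had a ratio of -0.84, CDK2 -0.76, CDK6 -0.39 and CDK1 -0.04, but other CDK1 probe sets gave -0.82 and -0.63, and those of CDK6 ranged from -0.90 to 0.34. CCNA2, the S and G2 phase cyclin, had 0.25 in its brighter and -0.34 in its dimmer probe set, so its direction is not settled. With the mean over all probe sets, floored ones included, CCND3 and CCNE2 had ratios of -0.67 and -0.64, below 2-fold.

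CDK activity is also set by phosphates that other enzymes place and remove, the level at which CDKN3 acts. Of 8 such genes measured, none reached 2-fold in the probe set used, 4 had a ratio above 0 and 4 below. WEE1, the kinase that places an inhibitory phosphate on CDK1, came nearest, from 773.2 to 387.5, just short of 2-fold. With the mean over probe sets WEE1 had a ratio of -1.02, past 2-fold. The related kinase PKMYT1 had -0.55. MNAT1, a subunit of the CDK-activating kinase, had 0.49 and CDC25A, the phosphatase that relieves the inhibition by WEE1, 0.02.

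The level of the p21 and p27 proteins depends on their breakdown, which transcript signals do not show. Of 15 measured genes of that breakdown, none reached 2-fold and 11 had a ratio below 0, with a median of -0.30. Over all measured genes, 63.4% had a ratio below 0 and the median was -0.12. SKP2, which marks p27 for destruction, had -0.51, with -0.85 in another probe set, and its cofactor CKS1B had -0.59. RBX1, a subunit of the cullin ligases, had -0.58, and FBXW7, which marks cyclin E, had 0.62. Other FBXW7 probe sets gave 0.75 and 0.28.

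Downstream of the inhibitors, retinoblastoma-type proteins restrain the E2F factors. Of 20 measured genes of this group, 2 were lower by 2-fold or more and 0 higher, 16 were below 0 and the median was -0.45. Over all measured genes, 2.27% were lower by 2-fold or more, 63.4% were below 0 and the median was -0.12. E2F7, a repressor of the family, went from 329.2 to 107.1, 3.07-fold lower, and E2F2, an activator, from 588.8 to 283.8, 2.07-fold lower. E2F2 fell short of 2-fold after each of the 3 rescalings, at -0.95, -0.93 and -0.93. With the mean over probe sets both fell short, E2F2 at -0.35 and E2F7 at -0.81, and E2F7 also did with the floor at the 75th percentile, at -0.95. TFDP1, the partner subunit of E2F factors, had -0.96, with -1.01 and -1.36 in other probe sets. RBL1 (p107) had -0.88, E2F1 -0.54 with -0.92 in another probe set, FOXM1 -0.73 and RB1 itself -0.27.

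Genes expressed in S phase, which E2F factors drive, were lower than mitosis genes as lists. Of 21 measured S phase genes, 5 were at least 2-fold lower, 20 were below 0 and the median was -0.66. Among them, PCNA, the polymerase clamp that p21 binds directly, went from 2455 to 1060, 2.32-fold lower, UHRF1, which keeps DNA methylation through replication, was 2.54-fold lower, and GINS2, a helicase subunit, at least 2.43-fold lower, being below the floor with eltrombopag. With the mean over probe sets, GINS2 had a ratio of -0.43, below 2-fold. Of 22 mitosis genes, none reached 2-fold, 20 were below 0 and the median was -0.29. Beside both lists, 2.27% of all measured genes were at least 2-fold lower, 63.4% were below 0 and their median was -0.12. KIF11 had -0.74, CCNB1 -0.66 and BIRC5 -0.65, and other probe sets gave -0.53 for CCNB1 and -0.85 and -0.82 for BIRC5. CDKN3, at -1.01, had a lower ratio than each of these 22 mitosis genes.

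Factors that act on the promoters of CDK inhibitors showed no common direction. Of 27 measured, 1 was at least 2-fold lower, 12 were above 0 and 15 below, and the median of -0.12 equalled that of all measured genes. The gene past 2-fold was CEBPA, a factor of granulocyte formation that restrains division, whose signal went from 818.7 to 279.1, 2.93-fold lower. EGR1, an early response factor, had 0.76, SMAD3, which carries TGF-beta signals, -0.53, FOXO3, an activator of CDKN1B, -0.35, and MYC, which represses CDKN1A, -0.12. Of 16 measured genes known as targets of p53, other than CDKN1A, 15 had a ratio below 0, against 63.4% of all measured genes. None reached 2-fold with the floor used here, and the median was -0.34, or -0.2 after quantile normalization. HL60 cells are known to lack p53, and its activity was not tested. PPM1D, a phosphatase, had -0.76, TP53INP1 -0.70 and BAX, which promotes cell death, at most -0.69, being below the floor with eltrombopag. With the floor at the 50th percentile, or with none, BAX had a ratio of -1.30, past 2-fold.

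**Figure D3:**
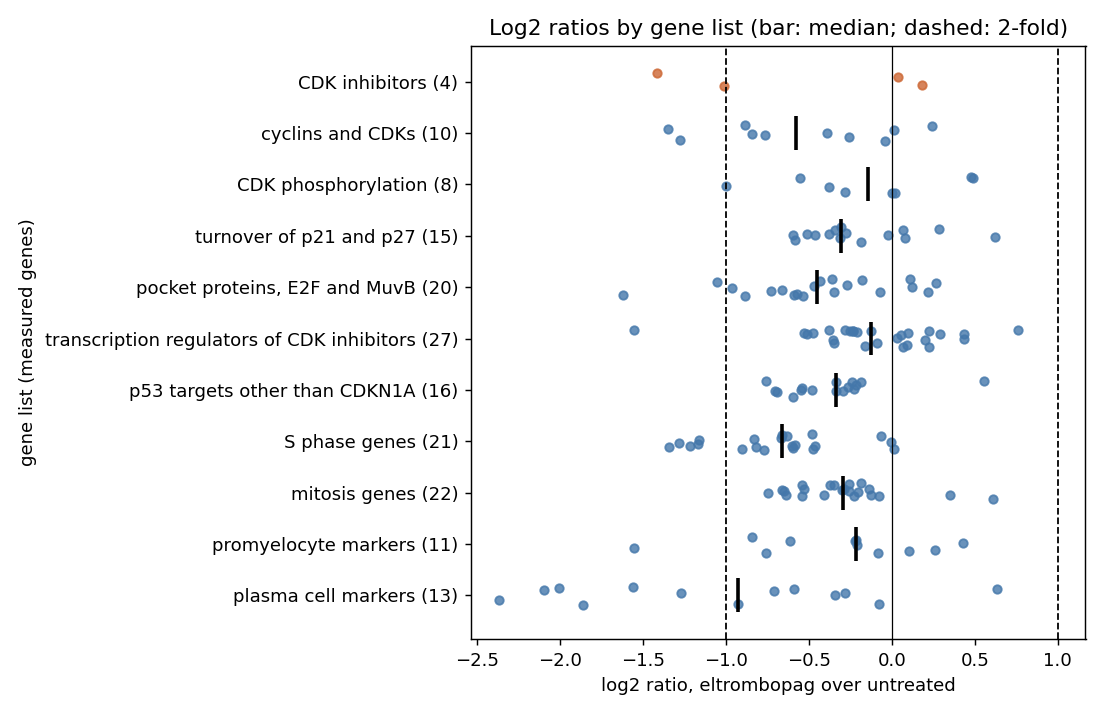
Log2 ratio of eltrombopag over untreated for each measured gene, by gene list with the number of measured genes in parentheses; the black bar is the list's median (not drawn for the CDK inhibitors) and dashed lines mark 2-fold. The S phase genes have a median of -0.66 and the mitosis genes -0.29; the plasma cell markers reach the lowest ratios, with a median of -0.93.

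Of the 13 measured plasma cell markers, 6 were at least 2-fold lower and 12 below 0, with a median of -0.93. Of the 11 measured promyelocyte markers, 1, CEBPA, was at least 2-fold lower and the median was -0.21. Over all measured genes, 2.27% were at least 2-fold lower and 63.4% were below 0. The plasma cell markers ran from -2.37 for IRF4 to 0.63 for DERL3, and the promyelocyte markers from -1.55 for CEBPA to 0.43 for MYB. CDKN1A, at -1.41, lay within both ranges. The plasma cell markers IRF4, TNFRSF17, SLAMF7, FKBP11 and POU2AF1 had lower ratios than CDKN1A, and the other measured ones had higher ratios. Of the measured promyelocyte markers, only CEBPA had a lower ratio than CDKN1A, and the next lowest was CTSG at -0.84.

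Of the other INK4 genes, CDKN2A had signals of 1116 and 781.8 in its brightest probe set, a log2 ratio of -0.51, and CDKN2B lay below the floor in both samples. The genes whose ratio was nearest to that of CDKN1A, taken from genes at or above the floor in each sample, were ATP1B1 (-1.41), PARM1 (-1.42) and KCTD12 (-1.39), and those nearest to CDKN3 were MREG, SLC48A1 and CLU (-1.01 each). Over 2 samples the pattern of a gene is a single ratio, so this likeness rests on 1 number per gene. Other probe sets gave -1.10 for KCTD12 and -1.27 for SLC48A1.

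**Figure D4:**
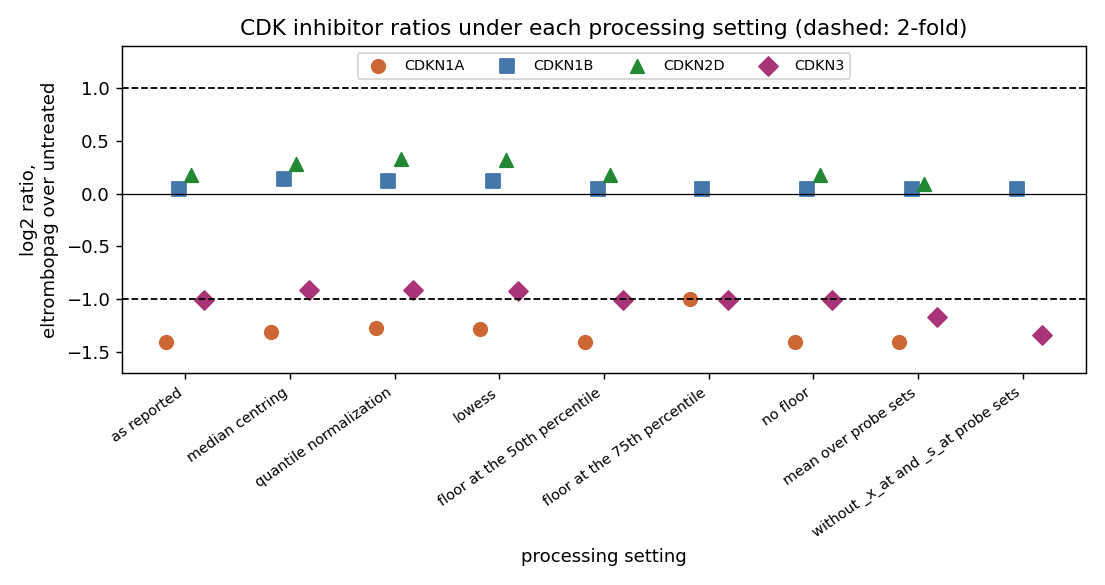
Log2 ratio of eltrombopag over untreated for CDKN1A, CDKN1B, CDKN2D and CDKN3 (symbols set side by side) under each processing setting on the horizontal axis; dashed lines mark 2-fold, and a missing symbol means that the gene was not measured or had no probe set there. CDKN1A lies between -1.41 and -1.0 and CDKN3 between -1.34 and -0.91, while CDKN1B and CDKN2D stay between 0.04 and 0.33.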

How the data were processed

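Expression was measured in 2 samples labelled HL60, 1 untreated and 1 given eltrombopag. Per the labels' protocols, total RNA came from a Trizol extraction and was labelled as biotinylated cRNA for Affymetrix arrays. The authors deposited linear signal intensities, 1 for each probe set in each sample, computed with MAS5 per the submitters' processing notes. The MAS5 version and scaling target were not stated there. MAS5 gives low signals a large relative error, and 1 array per group limits the precision. Values were used as deposited. The floor, the brightest probe set per gene (highest mean log2 signal) and 2-fold calls are described above. Of 54613 probe sets, 41091 named 1 gene, 1801 named several and stayed unnamed, and 11721 were not listed in the platform annotation; 41037 had a RefSeq identifier (GRCh38.p14), which changed 0 symbols. From each of 10 gene lists, the 3 measured genes with the largest ratio and a fixed panel are named; CDKN2B, CD34, KIT and other single markers were named after their values were seen. Lists overlap: CDC20 and CEBPA are each in 2. The members and lists were chosen with earlier results of these data known. The alternatives were median centring, quantile normalization, lowess (span 0.3), a floor at the 50th percentile, at the 75th or none, the mean over probe sets, omission of _x_at and _s_at probe sets, and thresholds of 1.5-fold and 3-fold. Gene calling was tested on simulated data. Python 3.11.15, numpy 2.4.6, pandas 2.3.3, statsmodels 0.14.6 and scipy 1.17.1 were used.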

Additional observations from a re-analysis of the deposited data

How the results depend on the processing

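The count of CDK inhibitor genes at least 2-fold lower was 2 of 4 measured on the deposited scale. It was 1 of 4 after median centring, quantile normalization and lowess, where CDKN3 fell short. Without _x_at and _s_at probe sets it was 1 of 2. There CDKN1A has no probe set left, and the remaining one of CDKN2D lies below the floor. At a 3-fold threshold the count was 0 of 4. It was 2 of 5 with the 50th percentile floor and without a floor, and 2 of 3 with the 75th percentile floor. With the mean over probe sets and at 1.5-fold it was 2 of 4. The count at least 2-fold higher was 0 under all 10 alternatives. With a 75th percentile floor (a signal of 170.5), CDKN1A lay below it with eltrombopag, so its ratio of -1.0 is only a bound. Over all measured genes, 234 were at least 2-fold lower and 67 higher as deposited. These counts became 154 and 97 after median centring, 133 and 108 after quantile normalization, 137 and 104 after lowess, 98 and 37 with the 75th percentile floor, 1324 and 1194 without a floor, and 118 and 44 with the mean over probe sets. Of the ratios of single named genes under alternatives, 336 kept their side of 2-fold, 12 dropped below it, 4 passed it (BAX under 2 floors, WEE1 and TFDP1 with the mean over probe sets) and none changed sign among those past it. The medians of the cyclin and CDK, breakdown, E2F, S phase, mitosis and p53 target lists stayed below 0 under the 3 rescalings, and the S phase genes at least 2-fold lower stayed at 5. No paired analysis was possible because each group holds 1 sample. For the 6 probe sets below the floor, CDKN1C's among them, the signal is too low to give a direction.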
